A study of Rattus norvegicus with 39 samples.

Results

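Adora2a (ENSRNOG00000001302) is 1 of the 23978 genes counted in 39 RiboTag immunoprecipitation (IP) libraries from the nucleus accumbens (NAc) of female rats, and it was taken from the count table by its Ensembl identifier. Each library came from 1 heterozygous Long Evans rat that carried Cre under Drd1a control (Drd1a-iCre, D1-Cre) or Drd2 control (Drd2-iCre, D2-Cre). All rats, the saline controls included, carried a Cre-dependent viral vector in the NAc that adds an HA tag to the ribosomal protein Rpl22, so HA-antibody IP enriches polyribosome-bound mRNA of D1- or D2-type medium spiny neurons (MSNs). The 8 groups cross Cre line, cycle stage at injection (proestrus or diestrus) and treatment (6 injections of saline, or 6 of racemic ketamine at 10 mg/kg, 4 to 5 days apart), with tissue collected 4 days after the last injection, drug-free, soon after return to the testing chamber. There were 5 libraries in 7 of the groups and 4 in the D2-Cre group given ketamine in proestrus, 1 library of which the authors left out. The ketamine-treated rats were limited by the study to animals whose locomotor response rose with repeated treatment, and each Cre line is a single transgenic line. The rats were adult.

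Adora2a encodes a receptor for adenosine, the nucleoside that accumulates outside cells as ATP is broken down. In the striatum the receptor couples to the stimulatory G protein Golf and adenylyl cyclase, raises cAMP, and opposes the dopamine D2 receptor, with which it is coexpressed in indirect-pathway MSNs. For this reason the gene serves as a marker of D2-MSNs, and its receptor is also a site of action of caffeine. Cholinergic interneurons also express Drd2, so a Drd2-driven Cre can tag them too.

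Adora2a was high in every D2 library and low, but far above zero, in every D1 library. Levels are given as CPM, counts scaled to a common library total after TMM normalization, and they compare libraries, not genes of different length. In saline-treated D1-Cre rats, the proestrus libraries had 156, 158, 183, 195 and 206 CPM, and the diestrus libraries had 149, 150, 173, 190 and 208. The D1 libraries of the 2 stages thus covered nearly the same range, 156 to 206 in proestrus and 149 to 208 in diestrus. In ketamine-treated D1-Cre rats, the proestrus libraries had 147, 163, 164, 183 and 196 CPM, and the diestrus libraries had 141, 184, 186, 201 and 221. The lowest and the highest of the 20 D1 libraries were both from ketamine-treated diestrus rats.

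In saline-treated D2-Cre rats, the proestrus libraries had 776, 808, 850, 1025 and 1063 CPM, and the diestrus libraries had 817, 945, 951, 999 and 1030. The proestrus libraries divided into 3 of at most 850 and a pair of at least 1025. In ketamine-treated D2-Cre rats, the 4 proestrus libraries had 786, 789, 795 and 967 CPM, and the 5 diestrus libraries had 452, 764, 921, 956 and 1012. One diestrus library, number 32, lay apart at 452 CPM, and the lowest of the other 18 D2 libraries had 764. Even so, library 32 was 2.04 times the highest D1 library. Without it, a step chosen after its value was seen, the lowest D2 library was 3.45 times the highest D1 library.

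**Figure D1:**
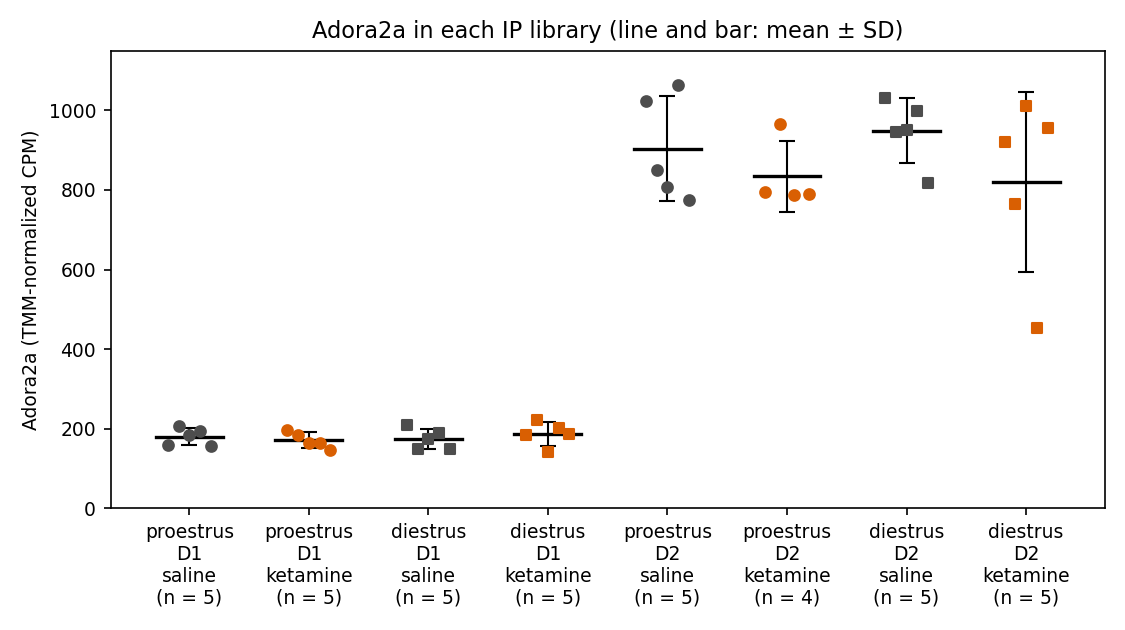
Adora2a in TMM-normalized CPM (vertical axis, linear, from 0) for each IP library by group, with circles for proestrus, squares for diestrus, grey for saline and orange for ketamine; the line and bar give the group mean and SD. The 20 D1 libraries lie between 141 and 221 CPM and the 19 D2 libraries between 452 and 1063, so the cell types do not overlap, while saline and ketamine libraries of 1 cell type do.

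Library totals ran from 2396517 to 43224256 counts, with a median of 20494896. The shallowest library, number 39 of the diestrus D2 saline group, still held 1962 Adora2a counts, and the deepest, number 22 of the proestrus D2 ketamine group, held 41545. Counting error alone was therefore between 0.491% and 2.26% of a library's value, well under the spread between libraries. The TMM factors lay between 0.904 and 1.05. Compared over the counts of all genes, no 2 libraries of a group agreed within sampling noise, the smallest chi-square per degree of freedom over 76 pairs being 2.76, although single pairs had nearly the same Adora2a level.

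Ordered by mean, the 4 D1 groups came first and the 4 D2 groups after them. Proestrus D1 ketamine had 171 ± 19.3 CPM (SD, n = 5), diestrus D1 saline 174 ± 25.7 (SD, n = 5), proestrus D1 saline 180 ± 22.0 (SD, n = 5) and diestrus D1 ketamine 187 ± 29.7 (SD, n = 5). Next came diestrus D2 ketamine with 821 ± 226 (SD, n = 5), proestrus D2 ketamine with 834 ± 88.3 (SD, n = 4), proestrus D2 saline with 904 ± 131 (SD, n = 5) and diestrus D2 saline with 949 ± 81.5 (SD, n = 5). Of the 7 steps between neighbours, the 6 within a cell type were smaller than the SD of either neighbour, and their 2-sided exact permutation p-values ran from 0.317 to 0.921. The step from the highest D1 to the lowest D2 group was 635 CPM, with the smallest p that 5 against 5 allow (2-sided exact permutation test, p = 0.00794, adjusted over the 7 steps 0.0556). The pairs were set by the order of these same means, so small steps within a cell type were likely in advance. These p-values only describe the order and test no difference chosen beforehand.

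The comparison of D2 with D1 after ketamine asks whether the cell type difference is present in treated rats as well. In the ketamine libraries of both stages, Adora2a averaged 827 ± 169 CPM (SD, n = 9) for D2 and 179 ± 25.1 (SD, n = 10) for D1, a ratio of means of 4.63. The saline libraries gave a ratio of 5.24. D1 libraries thus held 21.6% of the D2 mean after ketamine and 19.1% after saline. Which part of the D1 level comes from D1-MSNs and which from other RNA carried through the IP was not tested. In bulk IP libraries, fewer cells of a type and less RNA per cell cannot be told apart.

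In the model fitted over all genes with 2 surrogate variables (estimated factors for hidden variation between libraries), the log2 fold change of D2 over D1 after ketamine was 2.14 with both stages together (standard error 0.0982, 95% confidence interval 1.93 to 2.35, adjusted p = 2.76e-10 by the quasi-likelihood test of edgeR, Benjamini-Hochberg). This is a 4.41-fold difference. In proestrus alone it was 2.28 (standard error 0.101, interval 2.05 to 2.51, adjusted p = 4.21e-06), and in diestrus alone 2.12 (standard error 0.0811, interval 1.95 to 2.3, adjusted p = 1.9e-08). Adora2a was called higher in D2, at an adjusted p under 0.1, in all 6 comparisons of the cell types. In the ketamine comparisons, 5.61% of genes tested were called in proestrus, 12.8% in diestrus and 18% over both stages, of which those higher in D2 made up 2.4%, 6.16% and 8.16% of genes tested. In the saline comparisons 5.41%, 4.11% and 28.8% were called, and 2.8%, 1.73% and 14.6% were higher in D2.

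Every D2 library stood above every D1 library within each stage and treatment. Among genes tested, this held for 2.41% in proestrus and 2.2% in diestrus after ketamine, and for 3.49% and 2.85% after saline. Over both stages it held for 0.339% of genes after ketamine and 0.657% after saline. The exact permutation p for ketamine-treated rats was 0.0159 in proestrus and 0.00794 in diestrus (2-sided), the smallest that 4 against 5 and 5 against 5 libraries allow. Over both stages, a 2-sided permutation test within stages gave p = 4e-05 (100000 resamples).

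By log2 fold change, Adora2a ranked first among the genes called higher in D2 in proestrus, in saline as in ketamine libraries. In diestrus it ranked 3 in saline and 2 in ketamine libraries, and it ranked 3 over both stages in each treatment. Genes higher in D1 were outside this ranking, and ENSRNOG00000026036 averaged 990 CPM for D1 and 53.9 for D2 after saline. By unadjusted edgeR p, Adora2a ranked 9 in proestrus saline, 21 in proestrus ketamine and 9 in each diestrus comparison. Over both stages it ranked 4 in saline and 32 in ketamine libraries by that p. The median absolute log2 fold change of the genes called in either direction in these comparisons was between 0.249 and 0.577. Leaving out library 32 raised the diestrus ketamine value from 2.12 to 2.3 and that of both stages from 2.14 to 2.25.

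**Figure D2:**
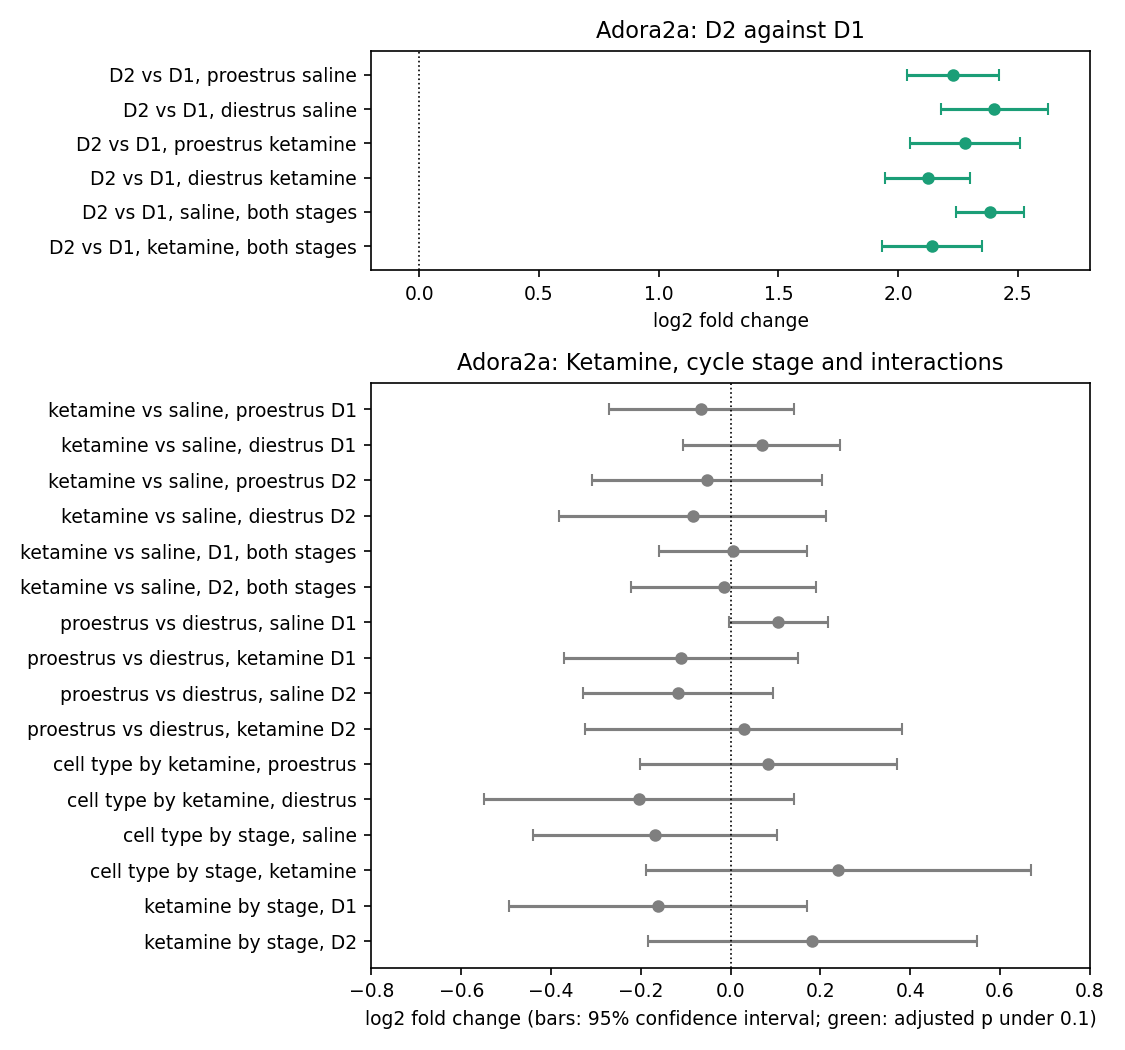
Log2 fold change of Adora2a (horizontal axis) with its 95% confidence interval in each of the 22 comparisons, green where the adjusted p was under 0.1. The 6 comparisons of D2 with D1 lie between 2.12 and 2.40, and each of the 16 comparisons of treatment, stage or their interactions has an interval that includes 0.

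The comparison of ketamine with saline asks whether repeated treatment shifted Adora2a within a cell type. In D1 libraries the means were 179 ± 25.1 CPM (SD, n = 10) after ketamine and 177 after saline. The fitted log2 fold change was 0.00 (95% confidence interval -0.16 to 0.17, adjusted p = 1, edgeR), so the interval reaches a 0.895-fold decrease and a 1.12-fold increase. In proestrus D1 libraries it was -0.06 (interval -0.27 to 0.14, adjusted p = 0.944), and in diestrus D1 libraries 0.07 (interval -0.11 to 0.24, adjusted p = 1). With 1 library left out, the proestrus value ran from -0.14 (without library 1) to -0.01 (without library 9), and the diestrus value from 0.01 (without library 27) to 0.15 (without library 20). The groups overlapped in both stages, and the exact permutation p was 0.492 in proestrus and 0.532 in diestrus (2-sided).

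In D2 libraries the ketamine mean was 827 ± 169 CPM (SD, n = 9), against 926 in saline libraries. The mean log2 difference within stages was -0.18, and a 2-sided permutation test within stages gave p = 0.144 (100000 resamples). Of the 9 ketamine-treated D2 libraries, 2 were below every saline D2 library and none was above. Without library 32 the ketamine mean was 874 ± 99.7 CPM (SD, n = 8) and the difference -0.08. The model over all genes gave -0.02 (95% confidence interval -0.22 to 0.19, adjusted p = 1, edgeR), with an interval from 0.857-fold to 1.14-fold. This value depended on the surrogate variables. Without them it was -0.17 (adjusted p = 0.626), with 1 of them -0.18 (adjusted p = 0.575), and without library 24, 37 or 40 it was -0.17, -0.18 or -0.21 (adjusted p = 0.568, 0.547 and 0.386).

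Within stages, the D2 value was -0.05 in proestrus (95% confidence interval -0.31 to 0.20, adjusted p = 0.999, edgeR) and -0.08 in diestrus (interval -0.38 to 0.21, adjusted p = 1). Without surrogate variables these became -0.11 and -0.21, and neither was called. In proestrus the value without library 22 was -0.18 (adjusted p = 0.628), and in diestrus the value without library 8 was -0.15 (adjusted p = 0.995). The exact permutation p was 0.317 in proestrus and 0.262 in diestrus (2-sided). In these D2 comparisons, edgeR called 0 genes, with an unadjusted p under 0.05 for 457 genes in proestrus, 355 in diestrus and 521 over both stages. DESeq2 with 2 surrogate variables called 1, 0 and 0. In D1 libraries, 0.00759% of genes tested were called in proestrus, 0.0227% in diestrus and 0% over both stages (764, 352 and 396 genes at an unadjusted p under 0.05). These were 1, 3 and 0 genes, where DESeq2 with 2 surrogate variables called 16, 10 and 0.

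Whether the difference between cell types changed with ketamine was tested as an interaction. In proestrus the log2 ratio of D2 over D1 was 0.08 higher after ketamine than after saline (95% confidence interval -0.20 to 0.37, adjusted p = 0.999, edgeR). It was -0.04 without surrogate variables and -0.001 without library 22, so its sign was not settled. In diestrus the ratio differed by -0.20 (interval -0.55 to 0.14, adjusted p = 1), and by -0.31 without surrogate variables. No gene was called in either (unadjusted p under 0.05 for 395 and 347 genes, and 0 called by DESeq2 with 2 surrogate variables in both).

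The comparison of proestrus with diestrus asks whether the stage at injection goes with a different level. The paper also took smears after death to check the assigned stage, so stage at injection and stage at collection cannot be told apart. In saline-treated rats, the log2 difference of proestrus over diestrus was 0.11 in D1 libraries (95% confidence interval -0.00 to 0.22, unadjusted p = 0.0587, adjusted p = 0.999, edgeR) and -0.12 in D2 libraries (interval -0.33 to 0.09, adjusted p = 0.987). The D1 value was 0.04 without surrogate variables and 0.05 without library 11, and the D2 value was -0.04 without library 21. In ketamine-treated rats it was -0.11 in D1 (interval -0.37 to 0.15, adjusted p = 0.999) and 0.03 in D2 libraries (interval -0.32 to 0.38, adjusted p = 0.998). The D1 value was -0.02 without library 26, -0.05 without library 12 and -0.20 without library 20. The D2 value was -0.09 without any 1 of libraries 6, 32 and 40, and 0.17 without library 8. Exact permutation p-values for the 4 stage comparisons ran from 0.397 to 0.921 (2-sided).

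The interaction of cell type with stage was -0.17 in saline (95% confidence interval -0.44 to 0.10, adjusted p = 1, edgeR) and 0.24 in ketamine libraries (interval -0.19 to 0.67, adjusted p = 0.997). The saline value was -0.09 without library 21. The ketamine value was 0.07 without library 40 and 0.09 without library 32. That of ketamine with stage was -0.16 in D1 (interval -0.49 to 0.17, adjusted p = 0.987) and 0.18 in D2 libraries (interval -0.18 to 0.55, adjusted p = 1), and the D1 value was -0.09 without library 12 and the D2 value 0.02 without library 32. No gene was called by edgeR in the stage comparisons or in these 4 interactions, with 243 to 668 genes at an unadjusted p under 0.05 and 0 to 6 called by DESeq2 with 2 surrogate variables.

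In 7 of the 8 groups, the coefficient of variation of Adora2a (SD over mean) ran from 8.6% to 15.9%. In diestrus D2 libraries after ketamine it was 27.5%, and 11.6% without library 32. In the 4 proestrus D2 libraries after ketamine it was 10.6%, and 0.577% without library 22. The fitted biological coefficient of variation of Adora2a ran from 6% to 15.2% over the 22 comparisons, where the median gene had 7.65% to 10.2%.

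Library 32 was low for other MSN genes too. Its Rgs9 level, for a striatal regulator of G protein signaling that speeds the shutdown of G proteins, was 205 CPM, where the other 18 D2 libraries had 281.5 to 413.4. Its Adcy5 level, for the main striatal adenylyl cyclase, was 445.1 CPM, the lowest of the D2 libraries. The summed markers of astrocytes (Gfap and Gja1, the 2 of 5 listed that could be paired with an identifier) came to 80.6 CPM in library 32, the highest of the ketamine-treated D2 libraries, which started at 39.8. Its endothelial and mural markers (Flt1 and Rgs5, 2 of 8 listed) came to 10.5 CPM, second among these libraries. The part of other cells in its Adora2a level was not tested.

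The cell type label of library 32 was checked on other genes. For 220 genes, Adora2a not among them, that were called between D2 and D1 in saline libraries with an absolute log2 fold change over 1, each ketamine library was placed between the saline means of D1 (set to 0) and D2 (set to 1). Library 32 lay at 0.82, within the range of the 9 ketamine-treated D2 libraries (0.7 to 1), and the 10 ketamine-treated D1 libraries lay between 0.02 and 0.2. On the same scale, the Adora2a level of library 32 lay at 0.57.

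Around the group means, Adora2a varied together with Rgs9 from library to library. In this description each library's log2 CPM was centered on the mean of its group, and the genes were compared over the 39 libraries, which share normalization and depth. Of 14128 genes, Rbfox1, a neuronal regulator of splicing, was the most alike (Pearson's r = 0.949), followed by Rgs9 (r = 0.935). Without library 32 these values were 0.908 and 0.898, and both genes kept their rank. Among the genes that could be paired with a symbol, Rbfox3, the splicing regulator known as the neuronal marker NeuN, came next (r = 0.912), then Ppp2r5a, a regulatory subunit of a protein phosphatase (r = 0.909). The median over all genes was 0.032, and 9.39% of genes were above 0.5.

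Rbfox1 and Rgs9 differed far less than Adora2a between cell types. In saline libraries Rbfox1 averaged 788 ± 61.0 CPM (SD, n = 10) for D2 and 701 ± 64.8 (SD, n = 10) for D1. Rgs9 averaged 357 ± 38.1 (SD, n = 10) and 302 ± 33.9 (SD, n = 10). The ratio of Adora2a to Rgs9, a gene taken for its likeness to Adora2a, compares libraries only, and it was 0.525 to 0.671 in D1 and 2.21 to 3.04 in D2 libraries. Library 32 had the lowest D2 ratio, 2.21, and library 22 the highest, 3.04. Diestrus D2 libraries after ketamine had 2.53 ± 0.190 (SD, n = 5) and diestrus D2 libraries after saline 2.57 ± 0.0576 (SD, n = 5). In proestrus the D2 ratios were 2.75 ± 0.234 (SD, n = 4) after ketamine and 2.62 ± 0.123 (SD, n = 5) after saline. The ratio to Adcy5 had a wider relative range, from 0.173 to 0.308 in D1 and from 0.93 to 1.52 in D2 libraries.

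**Figure D3:**
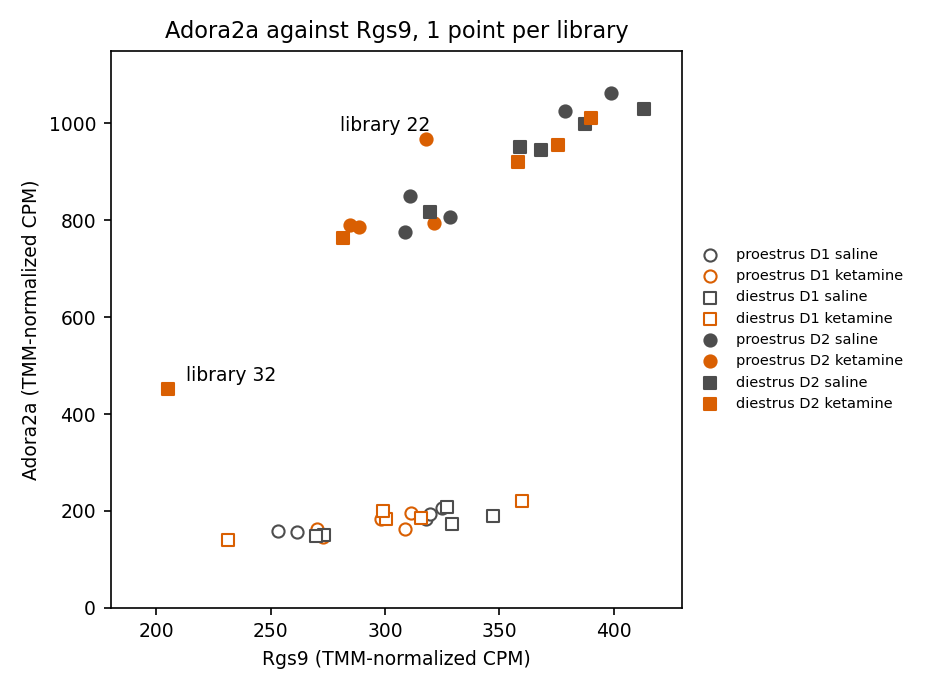
Adora2a (vertical axis) against Rgs9 (horizontal axis, which does not start at 0), both in TMM-normalized CPM, 1 point per library, with open symbols for D1, filled symbols for D2, circles for proestrus, squares for diestrus, grey for saline and orange for ketamine. The cell types form separate bands, the D2 band at ratios of 2.21 to 3.04 and the D1 band at 0.525 to 0.671, and library 32 sits at the low end of the D2 band on both axes.

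Over all 39 libraries without centering, the pattern of Adora2a was most like that of ENSRNOG00000008428 (r = 0.996) and ENSRNOG00000008943 (r = 0.994), genes that could not be paired with a symbol, and the most opposite was ENSRNOG00000018279 (r = -0.987). In ketamine-treated rats, ENSRNOG00000008428 averaged 394 ± 82.6 CPM (SD, n = 9) for D2 and 90 ± 9.01 (SD, n = 10) for D1. ENSRNOG00000018279 had 67.8 ± 8.68 (SD, n = 9) and 192 ± 8.75 (SD, n = 10). Such correlations mostly restate the difference between cell types. Among paired genes, Fig4, a phosphoinositide phosphatase, was the most alike (r = 0.882) and Chodl, a membrane lectin, the most opposite (r = -0.914).

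Of 42 other genes listed for adenosine receptors, adenosine production, transport and removal, the striatal cAMP pathway and partner receptors, 6 could be paired with an identifier. In saline libraries of both stages, 3 of the 6 were called higher in D2 (Adora1, Slc29a3 and Rgs9) and none lower, and in ketamine libraries 2 of the 6 (Adora1 and Slc29a4) and none lower, beside the 14.6% and 8.16% of all genes called higher in D2. Without library 1 alone, the 3 saline calls were lost and Slc29a4 was called. Their log2 fold changes lay between -0.36 and 0.54, where Adora2a had 2.38 and 2.14. None of the 6 was called between ketamine and saline, between stages or in an interaction where it was tested (edgeR, adjusted p under 0.1), and Adora2b was too low to be tested in 8 of these 16 comparisons.

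Among receptors, Adora1, the inhibitory adenosine receptor that lowers cAMP, averaged 141 ± 13.0 CPM (SD, n = 10) for D2 and 115 ± 15.1 (SD, n = 10) for D1 when saline was given, which fitted as 0.28 on the log2 scale (adjusted p = 2.16e-05, edgeR). After ketamine it averaged 127 ± 12.1 (SD, n = 9) and 113 ± 13.5 (SD, n = 10), which fitted as 0.11 (adjusted p = 0.0782). The D1 and D2 libraries overlapped in both treatments. The Adora1 saline call was lost without the proestrus D1 library 1 (0.22, adjusted p = 0.164) and in a single model of all 39 libraries (0.15, adjusted p = 0.229). The ketamine call was lost in that model (0.12, adjusted p = 0.256), without surrogate variables in edgeR or DESeq2 or with 1 of them (0.17, adjusted p from 0.117 to 0.144), with blocks of library numbers (0.17, adjusted p = 0.169), at a threshold of 0.05 and without any 1 of libraries 10, 16, 20, 22, 34 and 36 (0.09 to 0.10, adjusted p from 0.105 to 0.15). Whether the Adora1 difference changed with ketamine was tested within stages, and the interaction was 0.01 for proestrus rats (adjusted p = 0.999) and -0.12 for diestrus rats (adjusted p = 1). Adora2b, the low-affinity stimulatory receptor, was at most 0.879 CPM in any library and was not called, except in ketamine libraries without library 38 (0.69, adjusted p = 0.0947).

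Among nucleoside transporters, Slc29a4, a plasma membrane carrier of monoamines and adenosine, averaged 39.4 ± 6.73 CPM (SD, n = 9) for D2 and 28.7 ± 3.42 (SD, n = 10) for D1 after ketamine (log2 fold change 0.54, adjusted p = 6.19e-09, edgeR). In saline libraries it averaged 33.8 ± 6.41 (SD, n = 10) and 31.3 ± 6.64 (SD, n = 10), with a value of 0.15 (adjusted p = 0.339). In proestrus saline libraries alone Slc29a4 was called (0.42, adjusted p = 0.0398), and in diestrus saline libraries alone it was not (0.23, adjusted p = 0.58). The saline value of both stages was also called without any 1 of libraries 1, 5, 17, 25 and 39 (0.25 to 0.46), with the number of surrogate variables from num.sv or at least 10 counts in every library (0.32 in both), and in the single model (0.46). The interaction with ketamine was 0.05 for proestrus rats (adjusted p = 0.999) and 0.11 for diestrus rats (adjusted p = 1). Slc29a3, an intracellular nucleoside transporter, was low, with 3.58 ± 0.804 CPM (SD, n = 10) for D2 and 2.51 ± 0.485 (SD, n = 10) for D1 after saline (0.54, adjusted p = 0.0107). Its call was lost without library 1, 17 or 39 (0.45 to 0.48, adjusted p from 0.109 to 0.156). After ketamine its value was 0.16 (adjusted p = 0.491), with a call in diestrus alone (0.47, adjusted p = 0.0859) and not in proestrus alone (-0.00, adjusted p = 1).

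In the cAMP pathway, Rgs9 had a log2 fold change of 0.23 in saline (adjusted p = 0.00176, edgeR) and 0.02 in ketamine libraries (adjusted p = 0.928). The Rgs9 saline call was lost without library 1 (0.10, adjusted p = 0.4) and in the single model of all 39 libraries (0.0083, adjusted p = 0.974). Adcy5, the cyclase that Adora2a acts on, averaged 833 ± 55.1 CPM (SD, n = 10) for D2 and 784 ± 122 (SD, n = 10) for D1 after saline (0.08, adjusted p = 0.224), and it was called without library 9 (0.16, adjusted p = 0.0764). Its value was -0.11 in ketamine libraries (adjusted p = 0.138), and it was called there without library 10 (-0.13, adjusted p = 0.0389) or library 24 (-0.14, adjusted p = 0.0592). In diestrus alone after ketamine, Adcy5 was called lower in D2 (-0.18, adjusted p = 0.0739). In the single model Adcy5 was called lower in D2 after saline, where its sign changed (-0.21, adjusted p = 0.0409). It was also called lower in D2 after ketamine in that model (-0.20, adjusted p = 0.0141).

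**Figure D4:**
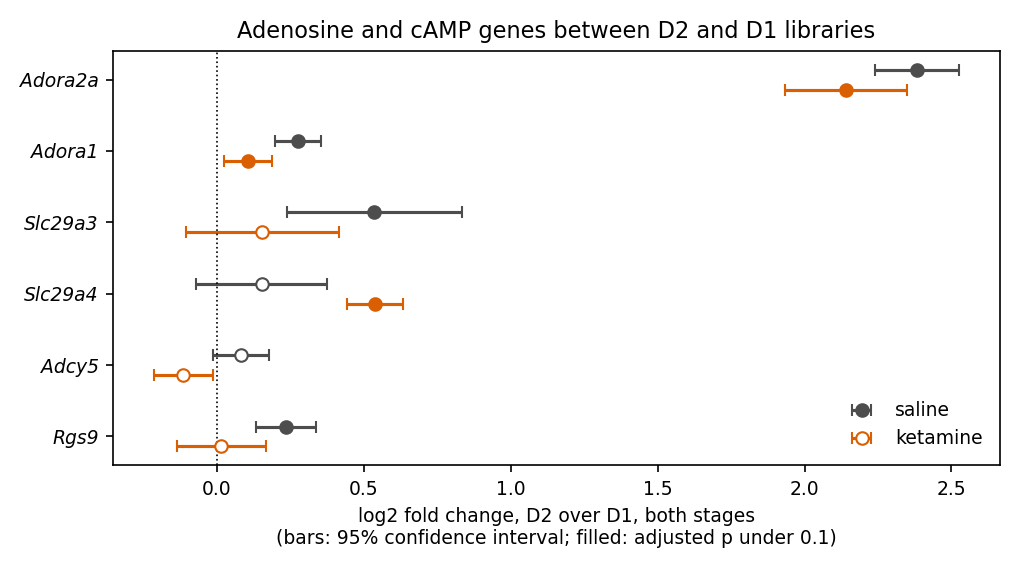
Log2 fold change of D2 over D1 libraries of both stages (horizontal axis) with its 95% confidence interval for Adora2a and 5 genes of adenosine and cAMP signaling, grey for saline and orange for ketamine, filled where the adjusted p was under 0.1. Adora2a lies at 2.38 and 2.14, and the other genes lie between -0.11 and 0.54.

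In the RefSeq gene table of the GRCr8 assembly, used for names only, Specc1l, which encodes a protein linked to the cytoskeleton, is the next protein-coding gene to Adora2a on one side. The neighbor of Adora2a on the other side, Upb1, could not be paired with an identifier. Specc1l averaged 42.5 ± 4.90 CPM (SD, n = 9) for D2 and 38.3 ± 3.35 (SD, n = 10) for D1 after ketamine (log2 fold change 0.21, adjusted p = 0.00412, edgeR), and 0.19 in saline libraries (adjusted p = 0.0327). The saline call was lost without library 1 or 25 (0.19 and 0.16, adjusted p = 0.128 and 0.111), and the ketamine call without surrogate variables (0.15). Both calls were lost in the single model (0.13 and 0.14, adjusted p = 0.323 and 0.156). Around the group means its correlation with Adora2a was -0.06. The next genes on that side were Bcr and Rab36. Bcr, a regulator of small GTPases, was called higher in D2 in saline libraries with 0.13 (adjusted p = 0.0602) and was not called with -0.04 in ketamine libraries (adjusted p = 0.727), and Rab36, a small GTPase itself, was called lower in D2 with -0.36 (adjusted p = 0.000991) and -0.23 (adjusted p = 0.00332).

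The labelled cell types could not be checked here on the defining markers of D1- and D2-MSNs other than Adora2a, which were not analysed here by name. The paper itself reported enrichment of such markers in the matching cell type, by qRT-PCR of separate samples and by sequencing of the IP libraries. The levels of markers of other cells, which were not tested, overlapped between the cell types. Their means were higher in D1 for GABA interneurons and higher in D2 for the other lists given. The summed GABA interneuron markers Sst and Nos1 (2 of 5 listed) ranged from 246 to 837 CPM in D1 and from 72.4 to 290 in D2 libraries, with saline means of 448 and 149 and ketamine means of 447 and 161. Astrocyte markers ranged from 29 to 50.8 CPM in D1 and from 39.8 to 114 in D2 libraries, with saline means of 40.1 and 56.3 and ketamine means of 40.6 and 54.6. Endothelial and mural markers ranged from 2.96 to 6.32 and from 3.33 to 14.9, with saline means of 4.25 and 7.41 and ketamine means of 4.28 and 7.73. Microglial markers (Aif1 and Tmem119, 2 of 6) ranged from 1.16 to 2.77 and from 0.796 to 5.41, with saline means of 1.66 and 2.43 and ketamine means of 1.94 and 2.19. None of these markers was at 0 in any library, no cholinergic interneuron marker could be paired, and the part of other cells in the Adora2a difference was not tested.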

How the data were processed

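The authors trimmed reads with fastp 0.23.4, checked them with FastQC 0.12.1, quantified transcripts with Salmon 1.10.2 (mRatBN7.2, with bias corrections) and summed them per gene with tximport. The values deposited are expected counts as whole numbers, not normalized, and corrections for transcript length are not used here. Totals were 2396517 to 43224256. Only 1966 of 23978 identifiers could be paired with symbols, through 1998 identifiers in the authors' tables as held here, which were used for names only.

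Genes were filtered with filterByExpr (minimum count 10), TMM-normalized and tested with edgeR 4.0.16 (quasi-likelihood, robust, 2 svaseq surrogate variables from sva 3.50.0, R 4.3.3) on the libraries of each comparison, with Benjamini-Hochberg adjustment over all genes. A call was an adjusted p under 0.1. The paper used DESeq2 1.42.1, and DESeq2 1.42.0 was an alternative here. Log2 CPM used a prior count of 0.5. No library number recurs in another group, and the labels name nothing that pairs the rats. Each library is 1 rat. The model was tested on simulated data.

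Adora2a, the gene lists and the rule for named genes (listed pathway genes, and the genes most and least alike) were chosen with earlier results of these data known. The neighbor Specc1l and the weight given to libraries 22 and 32 were chosen after values were seen. Alternatives were the number of surrogate variables, DESeq2, its size factors, other filters, calls at 0.05, 1 model for the 39 libraries together, runs of 8 consecutive library numbers as blocks, and omission of single libraries. Input libraries are not used here. The result of 1 marker list is not reported here.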

Additional observations from a re-analysis of the deposited data

Results flagged for a closer look

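In each group of 4 or 5 libraries, the gap between the highest or lowest library and its nearest neighbor was compared with the whole range (Dixon's test at 95%), for Adora2a, the 6 pathway genes and Specc1l. Of 64 groups of values, 4 had such a library, and chance flags about 1 in 20. For Adora2a it was the deepest library, number 22 of the proestrus D2 ketamine group, at 967 CPM, where the other 3 libraries had 786, 789 and 795. Library 32, at 452 CPM in the diestrus D2 ketamine group, did not pass, since its gap was 0.558 of the range and the bound for 5 libraries is 0.71. For Adora2b the proestrus D1 saline library 33 was high at 0.719 CPM, for Slc29a3 the diestrus D1 saline library 35 was low at 1.53 CPM, and for Slc29a4 the diestrus D1 ketamine library 20 was high at 37.4 CPM.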

How the results depend on the processing

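The 6 differences of Adora2a between D2 and D1 kept their direction and their call in all 66 results under other settings (2.00 to 2.48, adjusted p at most 0.00271). They did so too in all 78 fits with a library left out (2.03 to 2.48). The results under other settings include the main fit read at a threshold of 0.05, and the num.sv setting sometimes repeated the main fit. The other 16 comparisons gave no call in 176 results under other settings and 234 fits with a library left out, with adjusted p of at least 0.386. For Adora2a, signs changed only among these uncalled values. In a single model of all libraries, ketamine in proestrus D2 was 0.072 and in D1 of both stages -0.011, and the latter was -0.019 with the number of surrogate variables from num.sv. The interaction of cell type with ketamine in proestrus was -0.040 without surrogate variables, -0.039 with 1, -0.038 with DESeq2 without them and -0.015 with blocks of library numbers. With each library left out, ketamine ranged from -0.18 to 0.070 in proestrus D2, from -0.030 to 0.041 in D1 and from -0.21 to 0.010 in D2 of both stages, the stage difference in ketamine D2 from -0.088 to 0.17, and the interaction in proestrus from -0.001 to 0.14. The cause of these changes was not tested. The 8 group means stayed within 1 SD under all scalings and omissions.

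The counts of genes behind the background shares moved more. Under other settings, 440 to 1441 genes were called between cell types in proestrus saline (718 as reported), 369 to 1348 in diestrus saline (546), 394 to 1313 in proestrus ketamine (748), 611 to 2204 in diestrus ketamine (1705), 1848 to 4106 in saline of both stages (3941) and 1732 to 2940 in ketamine of both stages (2492). With each library left out they ran from 290 to 1697, 273 to 926, 480 to 1098, 1156 to 2129, 1237 to 4229 and 2062 to 2822. These counts moved by over 1.5 times without library 5, 13, 25, 33 or 37 in proestrus saline, 23, 31 or 39 in diestrus saline, 2 in proestrus ketamine, and 1, 5, 17 or 39 in saline of both stages. In the other comparisons at most 26 genes were called under any setting. In the single model the Adora1 and Specc1l calls between cell types were lost, Slc29a4 in saline was called, and the Rgs9 saline call was lost (0.0083). Rgs9 in ketamine changed sign (-0.014, not called). Adcy5 was called lower in D2 in saline, with a change of sign, and in ketamine (-0.21 and -0.20). Adcy5 in saline was -0.012 with at least 10 counts in every library, and -0.055 to 0.1606 with each library left out. Rgs9 in ketamine was -0.024 to 0.099 with each library left out. Adora2b in saline, -0.36 as reported, was 0.17 without surrogate variables, 0.15 with DESeq2 without them or with blocks, and 0.017 in the single model. The labels give no replicate number to more than 1 group, so no fit could pair libraries by a shared number. Runs of 8 consecutive library numbers, each with 1 library of every group except that number 14 was not analysed here, could serve as blocks, and with them the 6 cell type differences of Adora2a stayed called (2.10 to 2.45), while 932, 1348, 394, 671, 3737 and 2010 genes were called in the order above.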
